A study of Homo sapiens with 6 samples.

Results

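The respiratory chain and ATP synthase genes were examined in RNA-seq libraries of SK-MEL-28, an established human melanoma cell line. Members were chosen by symbol alone, as protein-coding genes named NDUFA, NDUFB, NDUFC, NDUFS or NDUFV with a number, SDHA to SDHD, UQCR, CYC1, COX4 to COX8, ATP5, or the protein-coding genes of the mitochondrial genome. This gave 101 of the 60504 genes in the count table, of which 88 are nuclear-encoded and 13 are mitochondrially encoded. By complex, 44 members belong to complex I, 4 to complex II, 11 to complex III, 20 to complex IV and 22 to complex V. NDUFA4 was counted under complex I because of its symbol, although it is known as a subunit of complex IV.

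The series compared SK-MEL-28 cells that had received an empty vector plasmid (EV, 3 libraries, genotype given as control) with SK-MEL-28 cells that had received a plasmid for HDAC8, a histone deacetylase (HDAC8, 3 libraries). Both groups were the same cell line, both were harvested at 70% confluence, and the Methods describe hygromycin selection of the transfected cells. The question behind the comparison was which genes change when HDAC8 is introduced. The labels number the bioreps but do not say whether they were separate cultures, so the p-values measure only the spread between these libraries, which may be technical.

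HDAC8 itself did not separate the groups. Its counts were 357, 337 and 289 in the EV libraries and 417, 308 and 312 in the HDAC8 libraries, and its log2 fold change was -0.024 (SE 0.13, adjusted p = 0.924, edgeR's quasi-likelihood test). Whether reads from the plasmid could be counted on this gene was not tested, so every direction here is that of the libraries labelled HDAC8 over the libraries labelled EV. The libraries held 20850018 to 29822917 counts each. CPM denotes counts per 1000000 of the library size after TMM scaling (trimmed mean of M values), and a floor of 3 counts, which covers counting error only, stood at 0.102 to 0.148 CPM. The third HDAC8 library stood apart: across genes, the chi-square statistic per degree of freedom between its counts and those of the other HDAC8 libraries was 15.2 and 16.9, against 6.19 for those other libraries with each other and 4.61 to 12.1 among the EV libraries. Of 11 melanocyte lineage markers, 10 had a mean of at least 10 CPM and TYRP1 was near 0.

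Oxidative phosphorylation passes electrons from NADH (complex I) and succinate (complex II) through coenzyme Q to complex III, and then through cytochrome c to complex IV, which reduces oxygen. Complexes I, III and IV pump protons across the inner mitochondrial membrane, and complex V, the ATP synthase, uses the gradient to make ATP. Complex II is made of nuclear gene products alone, whereas the other complexes combine nuclear subunits with a few subunits that are transcribed from the mitochondrial genome as long polycistronic RNAs. Melanoma cells differ in how far they rely on this pathway, which the lineage factor MITF and the coactivator PGC1α (PPARGC1A) are known to regulate.

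The 5 highest levels per length belonged to mitochondrially encoded transcripts, and the other 8 lay among the nuclear-encoded members. Expressed as CPM per kilobase of transcript and averaged over both groups, MT-CO1, the catalytic subunit of complex IV, stood at 6016, MT-CO2 at 1306 and MT-CO3 at 1238, and the highest nuclear-encoded gene was ATP5F1B, the catalytic β subunit of ATP synthase, at 418, which ranked above MT-ND2 at 402. The lowest mitochondrially encoded gene, MT-ATP8, ranked 33 of the 95 tested members at 94.1. The median level per kilobase of the tested nuclear members was 34.0 for complex I, 77.0 for complex II, 52.9 for complex III, 118.0 for complex IV and 65.2 for complex V. These values divide by the length of 1 representative transcript per gene (GENCODE 44), so genes with a very long representative transcript, such as UQCRB with 8459 nucleotides, rank low. Library preparation removed ribosomal RNA according to the labels, and how evenly short transcripts were captured was not tested.

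**Figure D1:**
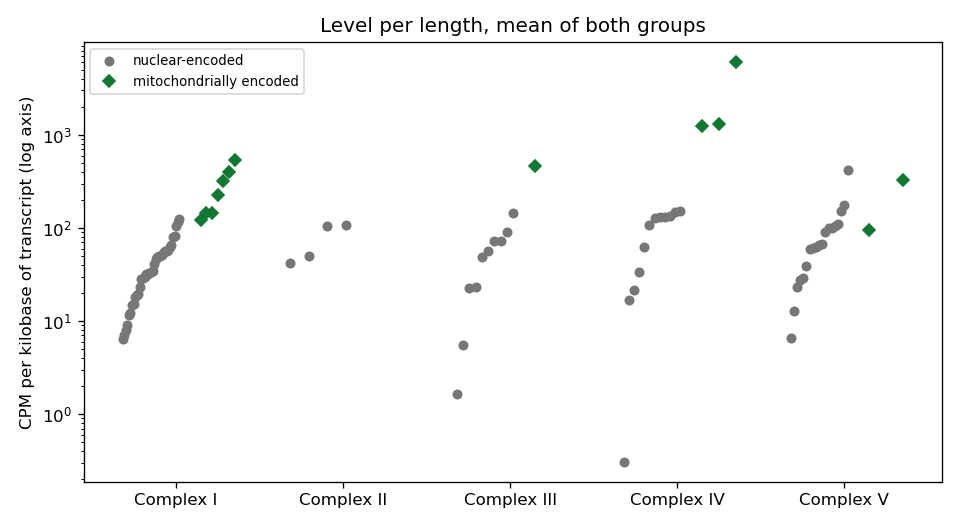
Levels of the 95 tested members by complex, in CPM per kilobase of transcript on a log axis, averaged over the libraries of both groups, with nuclear-encoded genes as grey circles and mitochondrially encoded genes as green diamonds. MT-CO1 lies highest at 6016, ATP5F1B is the highest nuclear-encoded gene at 418, and COX6B2 is the lowest tested gene at 0.309.

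At the RNA level, the widely expressed isoforms of complex IV predominated. COX4I1, the common form of the subunit that binds ATP, stood at 75.1, 77.2 and 81.4 CPM in the EV libraries, whereas COX4I2, the form known from lung and from low oxygen, had 0 counts in each of the 6 libraries. Per kilobase of transcript, the mean of the EV libraries was 143.6 CPM for COX6A1 and 0.484 for its heart and muscle form COX6A2, and 117.4 for COX7A2 and 1.02 for its heart and muscle form COX7A1. COX6B1 stood at 138.1 CPM per kilobase and its testis form COX6B2 at 0.251, COX7B2 reached at most 0.394 CPM, and COX8C had 1 count in all. COX4I2, COX6A2, COX7A1, COX7B2, COX8C and ATP5MGL were too low to be tested, which left 82 nuclear-encoded members and the 13 mitochondrially encoded members among 16195 genes tested.

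Nuclear-encoded members lay slightly higher in the libraries labelled HDAC8. Of 82 tested, 14 (17.1%) were higher at an adjusted p below 0.05 (quasi-likelihood test in edgeR, Benjamini-Hochberg over all genes tested) and 0 were lower, where 11.1% of all genes tested were higher and 11.7% were lower. Their median log2 fold change was 0.14, with quartiles of 0.047 and 0.23, beside 0.0091 for all genes tested, and 67 of 82 (81.7%) lay above 0, beside 51.4% of all genes. At an unadjusted p below 0.05, 34 were higher and 2 were lower, where 16.6% of all genes were higher and 17.1% were lower, and DESeq2 called 16 higher and 0 lower. The background differed with expression level, and also with transcript length, as given below. Among the 9468 protein-coding genes that averaged 10 CPM or more 14.0% were higher and the median was -0.0042, while 14 of the 76 nuclear members at that level (18.4%) were called.

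These differences were small. No member passed the adjusted p together with a log2 fold change of at least 0.58, thresholds that 4.07% of all genes passed as higher and 3.45% as lower. The largest nuclear change that was called was 0.38. In 29 of the 82 nuclear members (35.4%) all 3 HDAC8 libraries lay above all 3 EV libraries, and in 3 (3.66%) they all lay below, beside 18.7% and 19.4% of all genes.

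**Figure D2:**
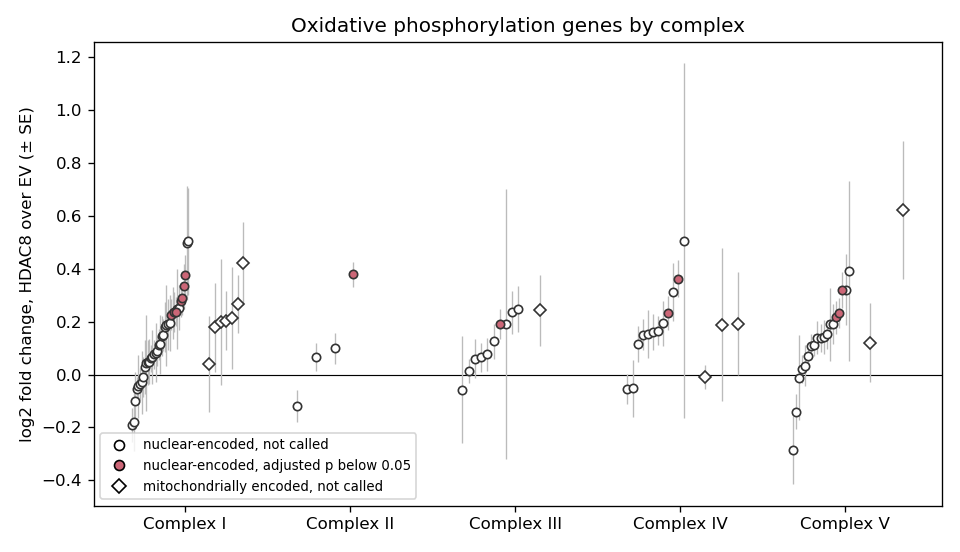
Log2 fold change of each tested member (HDAC8 over EV libraries, points, with SE as grey bars) by complex, with nuclear-encoded members as circles and mitochondrially encoded members as diamonds. Red circles mark the 14 nuclear members with an adjusted p below 0.05, all above 0, and no diamond was called.

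In complex II, the flavoprotein subunit SDHA, which oxidises succinate, was higher in the libraries labelled HDAC8, and the other subunits were not called. SDHA stood at 113.5, 115.4 and 118.1 CPM in the EV libraries and at 150.5, 150.8 and 150.0 CPM in the HDAC8 libraries. The groups lay far apart, with a log2 fold change of 0.38 (SE 0.046, adjusted p = 9.7e-05), the smallest adjusted p among all members. SDHB, which carries the iron-sulfur clusters, had a log2 fold change of 0.066 (adjusted p = 0.417), and its groups overlapped. The membrane anchors went to opposite sides of 0, SDHC at 0.099 (adjusted p = 0.285) and SDHD at -0.12 (adjusted p = 0.201). SDHC ranged from 123.4 to 143.1 CPM in the EV libraries and from 144.5 to 147.1 CPM in the HDAC8 libraries. SDHD ranged from 57.2 to 62.0 CPM in the EV libraries and from 52.7 to 57.0 CPM in the HDAC8 libraries. The groups of both anchors narrowly did not overlap although neither gene was called, where 18.7% of all genes tested lay apart as higher and 19.4% as lower. Reads of 3 SDHA pseudogenes came to 8.22% of the SDHA counts, and adding the counts of pseudogenes to their parents gave the same 14 called members.

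Complex I held 7 of the 14 called members out of 37 tested nuclear genes (18.9%, beside 11.1% of all genes tested). Its median log2 fold change was 0.11. Of 29 supernumerary subunits, 6 (20.7%) were higher and their median was 0.18. Of the 7 nuclear-encoded catalytic core subunits, 0 were called (edgeR, with 1 at an unadjusted p below 0.05, and 0 by DESeq2) and their median was 0.046. With only 7 core subunits, 0 calls lay near the share of all genes, and the difference between these groups was not tested. The seventh call was NDUFA4. Among the core subunits, NDUFS1, which carries iron-sulfur clusters, had a log2 fold change of -0.056 (adjusted p = 0.450) and NDUFV1, which binds NADH, 0.061 (adjusted p = 0.469).

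NDUFB11, an accessory subunit of the membrane arm encoded on the X chromosome, was at 30.7, 31.8 and 32.0 CPM in the EV libraries and at 43.9, 41.7 and 37.2 CPM in the HDAC8 libraries. Its log2 fold change of 0.38 (SE 0.077, adjusted p = 0.0039) came with no overlap between the groups. NDUFA9, known to bind NADPH near the junction of the arms, had 60.8, 59.8 and 59.6 CPM in the EV libraries and 70.5, 79.3 and 70.6 CPM in the HDAC8 libraries (log2 fold change 0.29, SE 0.062, adjusted p = 0.0057). The EV values lay close together, and every HDAC8 value was higher. NDUFA11, an accessory subunit of the membrane arm, showed 60.3, 59.8 and 59.4 CPM against 68.2, 78.2 and 71.6 CPM (log2 fold change 0.28, adjusted p = 0.0072). The other calls were NDUFA8 at 0.33 (adjusted p = 0.015), NDUFA4 at 0.24 (adjusted p = 0.0078), NDUFB8 at 0.24 (adjusted p = 0.043) and NDUFC2 at 0.23 (adjusted p = 0.017).

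At the other end of complex I, NDUFB5, a membrane arm subunit, was at 52.1, 50.3 and 52.9 CPM in the EV libraries and at 47.6, 45.7 and 42.7 CPM in the HDAC8 libraries. All HDAC8 values lay below the EV values, and the log2 fold change of -0.19 (SE 0.064, adjusted p = 0.054) missed the threshold, which it passed without HDAC8 replicate 1 (adjusted p = 0.041). NDUFB9 had a log2 fold change of -0.18 (adjusted p = 0.280), and 41.3 CPM in the third HDAC8 library set it apart from 55.7 to 60.7 CPM in the other 5.

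Complex III contributed 1 call among 10 tested nuclear members (10%, beside 11.1% of all genes tested), whose median log2 fold change was 0.10. UQCRFS1, the Rieske iron-sulfur protein, was at 68.2, 62.9 and 66.3 CPM in the EV libraries and at 77.1, 75.1 and 73.1 CPM in the HDAC8 libraries. The groups did not overlap, and the log2 fold change was 0.19 (SE 0.057, adjusted p = 0.031). The small subunits UQCRQ, at 0.25 (adjusted p = 0.059), and UQCR11, at 0.24 (adjusted p = 0.060), missed the threshold. UQCRC2, a core protein, had a log2 fold change of 0.014 (adjusted p = 0.875) and UQCRB -0.057 (adjusted p = 0.882). UQCRH, the hinge protein, had 69.1 to 85.3 CPM over the 6 libraries and a log2 fold change of 0.060, and its intronless near-copy UQCRHL, whose reads may be divided with UQCRH, had 0.284 to 0.576 CPM and a log2 fold change of 0.19 (adjusted p = 0.841).

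In complex IV, 2 of 12 tested nuclear members (16.7%) were higher, beside 11.1% of all genes tested. The median log2 fold change of the 12 was 0.16. Moving NDUFA4 to this complex gave 3 of 13 (23.1%) and a median of 0.17. COX7A2, a small subunit with a separate muscle form, was at 54.7, 52.5 and 55.5 CPM in the EV libraries and at 66.6, 65.6 and 77.0 CPM in the HDAC8 libraries (log2 fold change 0.36, SE 0.071, adjusted p = 0.0030). Its groups lay apart, and its highest value was in the third HDAC8 library, as was that of NDUFA4. COX6B1, which faces the intermembrane space, had a log2 fold change of 0.23 (adjusted p = 0.020). COX4I1 and COX6A1 also lay higher in every HDAC8 library, at 0.15 (adjusted p = 0.095) and 0.17 (adjusted p = 0.050) without being called, while COX5B, at -0.054 (adjusted p = 0.563), and COX6C, at -0.052 (adjusted p = 0.789), lay below 0 with overlapping groups. COX7A2L, known for its part in supercomplexes of complexes III and IV, had a log2 fold change of 0.15 (adjusted p = 0.263), COX7B 0.31 (adjusted p = 0.061) and COX8A 0.11 (adjusted p = 0.273).

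Complex V had 3 calls among 19 tested nuclear members (15.8%, beside 11.1% of all genes tested), and a median log2 fold change of 0.14. ATP5F1E, the ε subunit of the central stalk, was at 75.2, 68.5 and 78.0 CPM in the EV libraries and at 93.7, 98.1 and 85.3 CPM in the HDAC8 libraries. The groups did not overlap, and the log2 fold change was 0.32 (SE 0.069, adjusted p = 0.0056). ATP5PD, a peripheral stalk subunit, had a log2 fold change of 0.23 (adjusted p = 0.012), and ATP5MD, a small membrane subunit named ATP5MK in GENCODE 44, 0.22 (adjusted p = 0.027). The catalytic subunits ATP5F1A, at 0.072 (adjusted p = 0.264), and ATP5F1B, at 0.11 (adjusted p = 0.071), lay higher in every HDAC8 library but were not called.

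Subunit c, which forms the rotating ring of ATP synthase, is encoded by 3 genes whose mature proteins are known to be identical. Per kilobase of transcript, the mean of the EV libraries was 168.0 CPM for ATP5MC2, 96.4 for ATP5MC3 and 63.8 for ATP5MC1. ATP5MC3 had 240.0 to 255.2 CPM in the EV libraries and 266.0 to 273.8 CPM in the HDAC8 libraries, with a log2 fold change of 0.11 (adjusted p = 0.103). ATP5MC2 had 0.14 (adjusted p = 0.092), and ATP5MC1 had -0.14 (adjusted p = 0.161), with 40.2 to 41.7 CPM in the EV libraries and 35.7 to 39.2 CPM in the HDAC8 libraries. The groups of each of the 3 genes did not overlap, with ATP5MC1 on the other side of the remaining pair, and none was called (edgeR, with 2 at an unadjusted p below 0.05, and 0 by DESeq2). Such a lack of overlap was common, with 18.7% of all genes tested apart as higher and 19.4% as lower. The lowest log2 fold change of complex V, -0.29 (adjusted p = 0.145), belonged to ATP5MF-PTCD1, a readthrough gene on chromosome 7 from 99419749 to 99466197 that contains ATP5MF (99448475 to 99466186). Reads of the shared exons could be divided between them, and ATP5MF itself had a log2 fold change of 0.14 (adjusted p = 0.148). ATP5MG, a small membrane subunit, had 0.32 (adjusted p = 0.113), with 42.2 and 39.4 CPM in the first HDAC8 libraries and 27.0 CPM in the third, below its lowest EV value of 28.1 CPM.

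**Figure D3:**
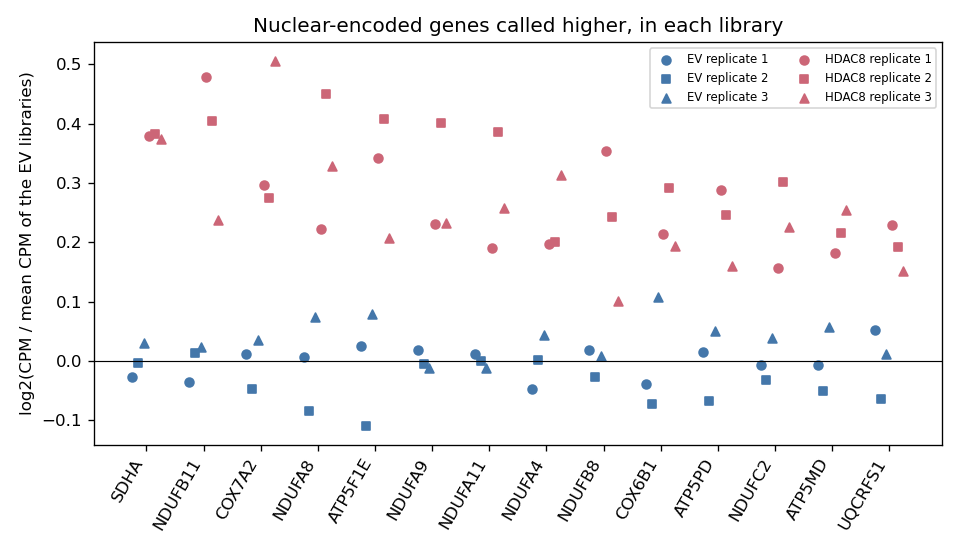
The 14 nuclear-encoded members called higher, as log2 of the CPM in each library over the mean CPM of the EV libraries, with EV libraries in blue and HDAC8 libraries in red and the replicate given by the marker shape. All HDAC8 libraries lie above all EV libraries for all 14 genes, by a small margin for NDUFB8, whose HDAC8 replicate 3 had 37.0 CPM against at most 35.0 CPM in the EV libraries.

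How firmly these calls stood differed between genes. SDHA, NDUFB11, NDUFA9, NDUFA11, COX7A2 and ATP5F1E were called in each of the 13 alternative fits, including the 6 that left out 1 library, whereas NDUFB8 and UQCRFS1 were called in 1 of those 6 and ATP5MD in 2 of them. The number of nuclear members called higher was 7 without EV replicate 1, 8 without EV replicate 2, 8 without HDAC8 replicate 2 and 30 without HDAC8 replicate 3. The called genes are named here because they were called, a choice made after their values were seen.

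The promoters of 69 of the 88 nuclear members were matched in a RefSeq table (GRCh38.p14, 250 bases before to 50 after each start), and core motifs of factors known for oxidative phosphorylation genes were searched on both strands. Where a gene had several promoters, only that with the lowest coordinate was used, which on the minus strand is the most downstream start. The NRF1 core (GCGCATGCG) was in 9 of the 69 (13%), beside 2.04% of 27305 promoters in the table and 3.49% of the promoters of 10503 tested protein-coding genes. The ETS core (CCGGAAG), which GABPA binds, was in 20 (29.0%), beside 10.6% and 18.7%, and the YY1 core (AAGATGGCG) in 9 (13%), beside 1.81% and 3.84%, with 8 of its 9 matches after the start. The ERR core (CAAGGTCA) was in 3 (4.35%), beside 1.31% and 0.724%. Together, 32 of the 69 (46.4%) held any of the 4 motifs, beside 14.7% of all promoters in the table. Of the 12 called members with a promoter in the table, 3 held the ETS core, 2 the YY1 core, 1 the NRF1 core and 0 the ERR core.

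The 250 bases before the RefSeq start are shown for SDHA, the member with the smallest adjusted p, and for the 3 called members whose ETS core lies in this stretch. Each reads 5′ to 3′ on the gene's strand, and capitals mark the ETS core. The stretches are chr5:218070-218319 (+), chr17:75046970-75047219 (-), chr19:35648073-35648322 (+) and chr10:103396476-103396725 (-). SDHA holds none of the 4 motifs here. The match begins 101 bases before the start in ATP5PD and 12 bases before it in COX6B1. In ATP5MD, matches on opposite strands, which begin 163 and 160 bases before the start, overlap in 1 palindromic stretch. A match is a description of the letters, not a bound site.
SDHA: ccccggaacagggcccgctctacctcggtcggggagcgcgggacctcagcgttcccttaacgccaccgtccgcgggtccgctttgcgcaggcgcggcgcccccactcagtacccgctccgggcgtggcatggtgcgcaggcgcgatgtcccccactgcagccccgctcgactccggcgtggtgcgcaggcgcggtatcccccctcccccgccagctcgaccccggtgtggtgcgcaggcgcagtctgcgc
ATP5PD: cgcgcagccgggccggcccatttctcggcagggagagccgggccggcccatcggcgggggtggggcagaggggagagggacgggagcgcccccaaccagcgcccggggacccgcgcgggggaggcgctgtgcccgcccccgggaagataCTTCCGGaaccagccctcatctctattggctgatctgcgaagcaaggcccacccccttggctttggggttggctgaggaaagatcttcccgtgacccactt
COX6B1: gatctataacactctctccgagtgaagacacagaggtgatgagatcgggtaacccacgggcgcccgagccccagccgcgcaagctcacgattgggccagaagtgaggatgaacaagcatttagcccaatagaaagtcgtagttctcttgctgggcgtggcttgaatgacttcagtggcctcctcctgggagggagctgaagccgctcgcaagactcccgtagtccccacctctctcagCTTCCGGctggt
ATP5MD: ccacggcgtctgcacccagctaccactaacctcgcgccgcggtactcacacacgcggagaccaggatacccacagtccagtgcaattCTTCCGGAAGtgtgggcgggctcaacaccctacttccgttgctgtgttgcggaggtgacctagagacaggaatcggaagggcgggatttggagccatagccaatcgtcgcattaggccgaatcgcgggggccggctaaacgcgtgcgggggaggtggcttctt

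The mitochondrially encoded genes did not separate the groups, and the HDAC8 libraries differed widely among themselves. Of 13 genes, 0 were called higher or lower by edgeR (3 higher at an unadjusted p below 0.05) and 0 by DESeq2 (1 at an unadjusted p below 0.05), and in 0 of 13 did the groups lie apart, beside the 18.7% and 19.4% of all genes given above. Their median log2 fold change was 0.20, and 12 of 13 lay above 0. The 13 genes together took 1.30%, 1.47% and 1.37% of all counts in the EV libraries and 1.52%, 1.53% and 1.17% in the HDAC8 libraries, with means of 1.38% ± 0.084 and 1.41% ± 0.203 (SD, n = 3 each).

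The first HDAC8 library lay above the highest EV value for 13 of 13 mitochondrially encoded genes and the second for 11 of 13, whereas the third lay below the lowest EV value for 11 of 13. In the nuclear members the third HDAC8 library also lay closest to the EV libraries, with a median log2 ratio to the EV mean of 0.064 beside 0.15 and 0.21 in the others. It was the lowest of the 6 libraries for 11 of 13 mitochondrially encoded genes, beside 20.1% of all genes tested. Among the 82 tested nuclear members, however, the lowest library was EV replicate 2 for 36, beside 19% of all genes tested. HDAC8 replicate 2 was the highest for 40 of these members, beside 16.4% of all genes tested.

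**Figure D4:**
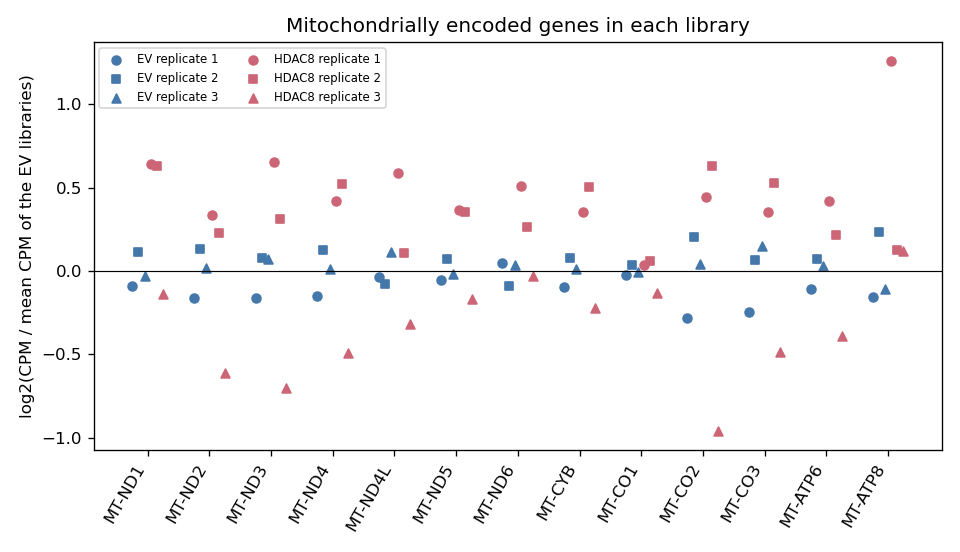
The 13 mitochondrially encoded genes, as log2 of the CPM in each library over the mean CPM of the EV libraries, with EV libraries in blue, HDAC8 libraries in red and the replicate given by the marker shape. HDAC8 replicates 1 and 2 lie above 0 for all 13 genes and replicate 3 (red triangles) lies below 0 for 12, the exception being MT-ATP8.

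Among the complex I subunits of the mitochondrial genome, MT-ND1, which lies at the junction of the arms, had 244.1, 280.2 and 254.0 CPM in the EV libraries and 405.0, 401.4 and 235.3 CPM in the HDAC8 libraries (log2 fold change 0.42, SE 0.16, adjusted p = 0.078). Its first HDAC8 libraries were well above, and the third below, every EV value. The proton-pumping subunits MT-ND2, MT-ND4 and MT-ND5 had log2 fold changes of 0.041, 0.21 and 0.20 (adjusted p = 0.907, 0.483 and 0.224), MT-ND3 had 0.20 (adjusted p = 0.619) and MT-ND4L had 0.18 (adjusted p = 0.511). MT-ND6, the only member transcribed from the light strand (chromosome M from 14149 to 14673), ran from 55.2 to 60.6 CPM in the EV libraries, had 83.4, 70.3 and 57.5 CPM in the HDAC8 libraries and a log2 fold change of 0.27 (adjusted p = 0.107). HDAC8 replicate 3 lay within the range of the EV libraries. MT-CYB, the mitochondrial subunit of complex III, had a log2 fold change of 0.24 (adjusted p = 0.241).

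MT-CO1 behaved differently from the rest. It made up 61.5% to 73.1% of the counts of the 13 genes, and its values of 9144, 9522 and 9248 CPM in the EV libraries and 9547, 9697 and 8500 CPM in the HDAC8 libraries spread far less than those of its neighbours (log2 fold change -0.0088, SE 0.046, adjusted p = 0.921). MT-CO2, which receives electrons from cytochrome c, spread the most, with 687.9, 960.0 and 858.4 CPM in the EV libraries and 1137, 1290 and 429.2 CPM in the HDAC8 libraries (log2 fold change 0.19, SE 0.29, adjusted p = 0.705). MT-CO3 had 0.19 (adjusted p = 0.537). In complex V, MT-ATP6, the proton channel subunit, had 0.12 (adjusted p = 0.631), and MT-ATP8 had 0.62 (adjusted p = 0.114) through 37.0 CPM in the first HDAC8 library against 13.8 to 18.1 CPM in the other 5. MT-ATP8 (8366 to 8572) overlaps MT-ATP6 (8527 to 9207), and MT-ND4L (10470 to 10766) overlaps MT-ND4 (10760 to 12137), so their shared reads could be divided. Nuclear pseudogenes of MT-ATP6 held 16.6% as many counts as MT-ATP6 itself.

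Without the third HDAC8 library, 12 of the 13 mitochondrially encoded genes, all but MT-CO1, were called higher (edgeR, 2 HDAC8 against 3 EV libraries), where 12% of 16676 genes tested were higher and 12.7% lower. Their median log2 fold change was then 0.42. MT-ND1 had 0.63 (SE 0.054, adjusted p = 9.4e-06), MT-ND4 0.46 (adjusted p = 0.00045), MT-CO2 0.53 (adjusted p = 0.0039) and MT-CO1 0.040 (adjusted p = 0.325). Nuclear-encoded calls went from 14 to 30 higher with a median of 0.17, and 1 member, ATP5MF-PTCD1, was lower (log2 fold change -0.45, adjusted p = 0.011). Of the 14 genes called with all 6 libraries, 13 were among the calls. ATP5MG (0.48, adjusted p = 0.00056) and COX5A, a matrix-side subunit of complex IV (0.29, adjusted p = 0.0019), were among those called only then. The labels give no reason to leave this library out.

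The third HDAC8 library differed from the other HDAC8 libraries more in short nuclear transcripts than in long ones. The log2 ratio of its CPM to the mean of the others, with 0.5 CPM added, had a median of -0.18 over the 36 nuclear members with a representative transcript under 700 nucleotides and of -0.029 over the 46 longer ones, and across these 82 genes, which share the same libraries, it had a Spearman correlation of 0.33 with length. Over all genes with a length the correlation was -0.0078, and over protein-coding genes that averaged 10 CPM or more the medians were -0.14 under 700 nucleotides and -0.012 above. In the mitochondrially encoded genes the medians were -0.69 for the 6 shorter and -0.78 for the 7 longer genes. Of the nuclear members, 7 of 36 under 700 nucleotides (19.4%) and 7 of 46 longer ones (15.2%) were called higher, beside 24.9% of 209 short and 13.8% of 9250 longer protein-coding genes that averaged 10 CPM or more. The median log2 fold change of the nuclear members was 0.17 for short and 0.11 for long transcripts. For protein-coding genes that averaged 10 CPM or more it was 0.17 for short and -0.0071 for long ones. Among all genes tested, it was 0.14 for short and 0.0034 for long transcripts. The part of transcript length in the results above was not tested.

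**Figure D5:**
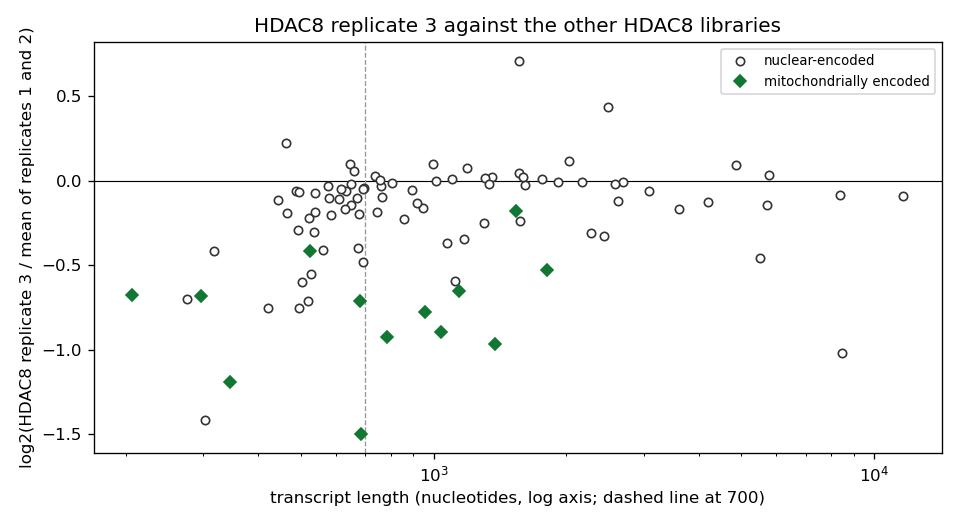
The log2 ratio of the CPM in HDAC8 replicate 3 to the mean of HDAC8 replicates 1 and 2, against the length of the representative transcript on a log axis, for nuclear-encoded (open circles) and mitochondrially encoded (green diamonds) members. The points have no CPM added. With 0.5 CPM added, the nuclear members left of the dashed line at 700 nucleotides have a median of -0.18 and those right of it -0.029. All 13 mitochondrially encoded genes lie below 0.

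Other genes of the pathway had a median log2 fold change near 0. In lists of assembly factors, electron carriers, mitochondrial RNA factors, transcription factors and the tricarboxylic acid (TCA) cycle, 131 genes were found, and of the 128 tested 9 (7.03%) were higher and 11 were lower, with a median log2 fold change of -0.0044, beside 11.1% and 11.7% of all genes. Cytochrome c itself (CYCS) was at 0.0037 and not called. Among 26 genes of mitochondrial transcription and RNA processing, 5 were lower and 1 was higher. The lower genes were TFAM, which packages mitochondrial DNA and activates its transcription, at -0.22 (adjusted p = 0.046), MTERF1 at -0.32 (adjusted p = 0.011), MTERF3 at -0.43 (adjusted p = 0.010), TRMT10C, a subunit of the RNase P that cuts mitochondrial tRNAs, at -0.25 (adjusted p = 0.037), and FASTKD5 at -0.20 (adjusted p = 0.047). SLIRP, which stabilises mitochondrial mRNAs, was higher at 0.39 (adjusted p = 0.035). TFAM was at 120.8, 116.1 and 122.0 CPM in the EV libraries and at 108.4, 109.9 and 90.6 CPM in the HDAC8 libraries, lowest in the third.

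Few assembly factors were called, where 11.1% of all genes tested were higher and 11.7% were lower. Of 18 for complex I, 0 were higher and 2 were lower, and the median log2 fold change was 0.046. Of 6 for complex III, 0 were higher and 1 was lower. Of 24 for complex IV, 2 (8.33%) were higher and 0 were lower, and the median was 0.032. The complex I factors ACAD9 (-0.27, adjusted p = 0.0078) and TIMMDC1 (-0.18, adjusted p = 0.033) and the complex III factor TTC19 (-0.33, adjusted p = 0.0017) were lower, and the complex IV factors COA4 (0.21, adjusted p = 0.013) and PET117 (0.54, adjusted p = 0.015) were higher. Among other enzymes that feed coenzyme Q, the mitochondrial glycerol-3-phosphate dehydrogenase GPD2 was lower, with 249.5 to 274.1 CPM in the EV libraries and 213.4 to 234.6 CPM in the HDAC8 libraries (-0.22, adjusted p = 0.0088). ETFB, which carries electrons from fatty acid oxidation, was higher (0.41, adjusted p = 0.025), as were COQ10A, a coenzyme Q binding protein (0.48, adjusted p = 0.045), and AIFM1, a flavoprotein of the intermembrane space (0.23, adjusted p = 0.043).

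The TCA cycle enzyme that makes the succinate used by complex II showed calls in opposite directions. SUCLG1, the α subunit shared by both forms of succinyl-CoA ligase, was at 45.9, 41.8 and 44.7 CPM in the EV libraries and at 57.8, 63.0 and 55.1 CPM in the HDAC8 libraries (log2 fold change 0.41, SE 0.070, adjusted p = 0.0012). SUCLG2, the β subunit of the GTP-forming enzyme, was also higher (0.19, adjusted p = 0.044), and SUCLA2, the β subunit of the ATP-forming enzyme, was lower (-0.34, adjusted p = 0.018). These were the only calls among 13 TCA genes, 2 higher (15.4%) and 1 lower, beside 11.1% and 11.7% of all genes tested. The remaining 10 were not called. Of the regulators, YY1 was lower (-0.18, adjusted p = 0.016), and ESRRG was higher at very low levels (0 to 0.163 CPM in the EV and 0.517 to 1.68 CPM in the HDAC8 libraries). PPARGC1A was not called (-0.13, adjusted p = 0.145), although it lay lower in every HDAC8 library (66.4 to 73.0 CPM in the EV and 61.6 to 64.6 CPM in the HDAC8 libraries).

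Defining markers of other cell types were mostly at or near 0, and single genes made up most of each sum that differed between the groups. The summed CPM of 11 melanocyte lineage markers was 6931 to 7336 in the EV and 8143 to 8680 in the HDAC8 libraries, with PMEL as its largest part (3978 to 4275 and 4992 to 5533). ERBB3 (285.3 to 287.8 against 456.4 to 479 CPM), TYR (321.1 to 332.9 against 441.1 to 454.3 CPM) and SOX10 (629.8 to 706 against 764 to 802.4 CPM) also lay higher in every HDAC8 library. Other markers of that list lay lower in every HDAC8 library, among them DCT (225.8 to 245.2 against 66.4 to 70.4 CPM), MITF (925.1 to 961.5 against 825.1 to 877.9 CPM) and S100B. For 6 fibroblast markers the sum was 42.3 to 44.6 and 53.8 to 58.6, of which LUM made up 34.7 to 37.9 and 47.8 to 52.2, while COL1A2 and COL3A1 were at or near 0. For 5 epithelial markers it was 83.6 to 95.2 and 93.2 to 108.1, mostly KRT18 at 70.2 to 95.0 CPM over the 6 libraries, with EPCAM and CDH1 at or near 0. It was 2.87 to 3.25 and 3.10 to 3.80 for 4 endothelial markers, and 26.9 to 28.2 and 24.6 to 32.8 for 5 haematopoietic markers. In bulk RNA, fewer cells of a type and less RNA per cell cannot be told apart, and the part of these markers in the results was not tested.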

How the data were processed

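The authors deposited estimated counts, as RSEM gives them, per Ensembl gene for the 6 libraries, without normalization. The submitters' processing notes name Trimmomatic, STAR, RSEM and DESeq2 and the build GRCh38, and the annotation version is not given in the sources used here. The labels name the Aurum kit, Ribo-Zero Plus depletion and a strand-specific NEBNext kit, whereas the Methods name Direct-zol and TruSeq kits. Whether counting used the strand is not stated. A second deposited table holds the authors' fold changes, p-values and group values, and was not used here.

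Between 5351 and 5685 values per library were not whole, as reads shared between genes are split in the estimate, and all were rounded. Genes were filtered (filterByExpr), scaled (TMM) and tested with edgeR 4.0.16 (glmQLFit, glmQLFTest, HDAC8 over EV, no block) in R 4.3.3 on 16195 genes, with Benjamini-Hochberg adjustment over all of them. A call is an adjusted p below 0.05, and the Methods' log2 fold threshold of 0.58 was an alternative, as were DESeq2 1.42.0, upper-quartile scaling, scaling without mitochondrially encoded genes, no filter on low counts, at least 10 counts in every library, the replicate number as a block, pseudogene counts added to their parents, and each library left out. Each SE was derived from the log2 fold change and the root of its F statistic. GENCODE 44 (GRCh38) gave positions and transcript lengths by Ensembl identifier, and RefSeq (GRCh38.p14) gave promoters. The scripts were tested on simulated data.

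The members and lists were chosen with earlier results of these data known. Named genes are members past both thresholds (0 genes), the 2 highest and 2 lowest log2 fold changes per complex among nuclear members with a mean of at least 10 CPM, all of complex II, the 13 mitochondrially encoded genes, the isoform groups of complexes III to V, and HDAC8, to which the called members and the called genes of the other lists were added after their values were seen. Molecular identifiers are not named in the sources used here, so floors cover counting error only.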

Additional observations from a re-analysis of the deposited data

How the results depend on the processing

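The count of nuclear members called higher was 14, and 12 to 20 over DESeq2, both scalings, both filters, the replicate block and added pseudogene counts. It was 0 with a log2 fold change of at least 0.58 and 7 to 30 with 1 library left out. The count called lower was 0, but 1 (NDUFB5) with scaling without mitochondrially encoded genes and with a minimum of 10 counts per library, and 0 to 1 with 1 library left out. Mitochondrially encoded calls went from 0 to 8 higher with no filter on low counts and to between 0 and 12 with 1 library left out. The replicate block gave 12 called members, 11 of them shared. Same-numbered libraries did not deviate together (correlations of -0.0693, -0.0894 and 0.00424 over 9776 genes, and 0 of 3 HDAC8 libraries correlated best with their own number). With 3 libraries a group, these values cannot tell whether same-numbered libraries shared a culture or a preparation.

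With 1 library left out, the median log2 fold change ran from 0.10 to 0.17 for nuclear members, from 0.085 to 0.42 for mitochondrially encoded members, from 0.096 to 0.19 for complex I and from 0.053 to 0.18 for complex III. The 13 mitochondrially encoded genes took 1.46% of protein-coding counts in the EV libraries, beside 1.38% of all counts. MT-ND2 turned from 0.041 to -0.00947 with the replicate block and to -0.062 when scaled to the sum of the 13 genes. With 1 library left out, log2 fold changes on both sides of 0 were seen for UQCRB (-0.26 to 0.20), UQCRC2 (-0.0057 to 0.026), COX6C (-0.20 to 0.0061), UQCRH (-0.0094 to 0.11), UQCRHL (-0.041 to 0.39), MT-ND2 (-0.14 to 0.27), MT-ND3 (-0.12 to 0.49), MT-ND4L (-0.098 to 0.37), MT-CO1 (-0.053 to 0.040), MT-CO2 (-0.10 to 0.53), MT-CO3 (-0.015 to 0.43) and MT-ATP6 (-0.064 to 0.31). The cause was not tested. With 3 libraries a group, the SE of a log2 fold change was 0.041 for ATP5F1B and 0.34 for ATP5ME, the latter at 2.11 to 6.61 CPM.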
